A study of Mus musculus with 4 samples.

Results

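The genes described here are the core of the inflammasome pathway in mouse splenic regulatory T cells: the sensors Nlrp1a, Nlrp1b, Nlrp3, Nlrc4 and Aim2, the adaptor Pycard, the proteases Casp1 and Casp4, and the pore protein gene Gsdmd. They were taken as the transcript clusters whose platform gene symbol is one of these names. All 9 were found, each with 1 cluster that carries no other gene's symbol, among 30492 genes measured. The set was put together because Casp1, Casp4, Nlrp1a and Pycard read higher in the arrays labelled KO in these same data. The differences of the members between the groups are therefore given as a description, and the limma counts printed for them further on are not read as a test.

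Inflammasomes are protein assemblies that form in the cytosol when a sensor meets a microbial product or a sign of cell damage. The sensor gathers the adaptor ASC, encoded by Pycard, which brings together and activates caspase-1. Caspase-1 matures the cytokines IL-1 beta and IL-18 and cuts gasdermin D, whose fragment opens pores in the plasma membrane and can kill the cell by pyroptosis. The pathway is best known from macrophages and other myeloid cells, while regulatory T cells are the CD4 T cells that express Foxp3 and restrain immune responses.

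RNA was profiled on 4 arrays of 1 colour, with 2 arrays in each group. The group labelled KO (replicates 1 and 2) has the genotype FOXP3-CRE, from the B6-Tg(Foxp3EGFP-cre)1cJbs/J transgene, crossed with BMI1-flox on C57BL/6. The group labelled WT (replicates 1 and 3) carries the same Cre transgene on C57BL/6 without the floxed allele, so every mouse expressed Cre together with green fluorescent protein under Foxp3 control. Splenic CD4 cells of 7 to 8 week old mice were sorted for that fluorescence, with a yield of 15000 to 40000 cells a sample. The titles call the cells unstimulated and the treatment field says they were untreated, whereas the series text has them stimulated with antibodies to CD3 and CD28 for 24 hours. Which of the statements applies is not known. Whether the samples came from separate animals is not stated, so the errors below cannot be taken as the spread between animals. They are limma errors, which combine a gene's spread between these samples with that of genes of like intensity.

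Bmi1, the targeted gene and a subunit of Polycomb repressive complex 1, had log2 values of 9.58 and 9.91 in the arrays labelled KO, against 8.98 and 8.98 in the arrays labelled WT. Its level was thus 1.70-fold higher in the arrays labelled KO (95% interval 1.28 to 2.25, limma adjusted p 0.300), which goes against the genotype label, and the sources used here do not say which exons were floxed or which the cluster covers. The directions given here rest on the labels alone. The median gene of the arrays had log2 values of 5.01 and 5.05 in KO and 5.05 and 5.0 in WT. Markers of T cells and regulatory T cells were far above that in every array, for example Cd3e at 16.91 and 16.82 in KO against 16.28 and 16.32 in WT, and Il2ra at 15.01 and 14.99 in KO against 14.97 and 15.00 in WT. Of 6 measured T cell markers (Cd3d the brightest, Cd247 the dimmest), 6 were higher in KO and 0 lower. Of 9 measured regulatory T cell markers (Tnfrsf4 the brightest, Capg the dimmest), 5 were higher and 4 lower, and 0 of either list passed the limma test. Lrrc32, the surface anchor of latent TGF-beta, read 11.18 and 10.48 in KO against 12.05 and 12.28 in WT (limma adjusted p 0.298), and Gpr83, a receptor gene, read 12.51 and 12.74 in KO against 11.88 and 11.07 in WT (limma adjusted p 0.354). Foxp3 has no value of its own, because its cluster also carries other symbols. Over all genes, limma called 2 genes higher and 0 lower in KO at an adjusted p under 0.05, while 1927 were higher and 1145 lower at an unadjusted p under 0.05.

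Windows around a listed transcription start are shown first for the 4 genes that define the pattern and for Nlrp1b, the neighbour and close copy of Nlrp1a that read the other way. Each runs 5′ to 3′ on the gene's own strand from 250 bases before to 50 bases after the start, as given by RefSeq for mouse build GRCm38.p6, and is the first window listed for the gene. Capitals mark matches to the searched motifs, which are GGAAGT (an ETS factor core, ACTTCC on the other strand) in all of them except Casp1, and CACGTG (an E-box) in Casp1.
Nlrp1a (chr11:71144655-71144954, minus strand): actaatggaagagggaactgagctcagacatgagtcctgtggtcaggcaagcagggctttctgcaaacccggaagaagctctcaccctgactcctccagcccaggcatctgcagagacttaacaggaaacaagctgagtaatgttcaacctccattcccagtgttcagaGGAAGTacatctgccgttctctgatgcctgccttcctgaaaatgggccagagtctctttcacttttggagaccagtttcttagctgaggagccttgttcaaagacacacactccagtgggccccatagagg
Nlrp1b (chr11:71230684-71230983, minus strand): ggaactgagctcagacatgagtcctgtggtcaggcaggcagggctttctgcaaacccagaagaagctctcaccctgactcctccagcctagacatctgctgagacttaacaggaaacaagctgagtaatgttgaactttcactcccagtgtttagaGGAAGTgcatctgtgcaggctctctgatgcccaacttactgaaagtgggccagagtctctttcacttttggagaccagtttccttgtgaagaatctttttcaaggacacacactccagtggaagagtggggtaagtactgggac
Pycard (chr7:127993818-127994117, minus strand): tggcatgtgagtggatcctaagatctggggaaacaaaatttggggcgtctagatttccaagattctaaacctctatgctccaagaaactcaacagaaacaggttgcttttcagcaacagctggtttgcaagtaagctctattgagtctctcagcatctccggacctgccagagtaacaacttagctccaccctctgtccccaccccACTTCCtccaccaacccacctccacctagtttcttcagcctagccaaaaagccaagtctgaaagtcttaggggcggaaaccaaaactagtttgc
Casp1 (chr9:5298267-5298566, plus strand): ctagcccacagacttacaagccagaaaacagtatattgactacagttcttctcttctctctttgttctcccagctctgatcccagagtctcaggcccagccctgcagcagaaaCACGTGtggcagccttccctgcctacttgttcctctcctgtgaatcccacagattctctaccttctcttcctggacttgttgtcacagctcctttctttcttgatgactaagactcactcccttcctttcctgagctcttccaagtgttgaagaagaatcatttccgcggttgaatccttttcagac
Casp4 (chr9:5308599-5308898, plus strand): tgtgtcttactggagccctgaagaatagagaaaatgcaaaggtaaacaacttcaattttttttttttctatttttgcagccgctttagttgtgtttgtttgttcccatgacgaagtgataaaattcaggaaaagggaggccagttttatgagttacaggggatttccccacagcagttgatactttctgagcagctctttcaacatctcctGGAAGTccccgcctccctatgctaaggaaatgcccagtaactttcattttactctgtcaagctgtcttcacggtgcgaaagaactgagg

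The Nlrp1a and Nlrp1b windows were near copies of each other. A local alignment matched 248 of 274 aligned bases, or 90.5%. The first base of GGAAGT lay 81 bases before the listed start in Nlrp1a and 94 bases before it in Nlrp1b. Both windows lie wholly inside the RefSeq spans of their genes, so these starts are not the outermost ones. Casp1 and Casp4, although neighbours, shared no such stretch: their best local alignment held 25 bases. Such close copies can share array probes, and the probe sequences were not used here, so a part of the Nlrp1a and Nlrp1b signals may not be separable.

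Of the 9 members, 8 had a window in the RefSeq table, and the first listed window of each was searched on both strands for 7 motifs. GGAAGT was found in 6 of the 8 (Nlrp1a, Nlrp1b, Nlrc4, Aim2, Pycard and Casp4) and in 23.8% of all 32851 windows of the same length. Both members that read higher in KO and members that did not were among the 6. CACGTG was found in 1 member, Casp1, and in 7.15% of all windows. TTCNNNGAA (GAS), TGACTCA (AP-1) and TATAAA were in 0 of the 8, against 8.30%, 5.20% and 13.6% of all windows in that order, and so were the core of an interferon-stimulated response element (3.44%) and the NF-kB consensus (0.155%). No match overlapped another. The first listed windows of Nlrp1a, Nlrp1b, Nlrp3 and Aim2 lay wholly inside the RefSeq spans of the genes, so their starts are not the outermost ones. The second listed window of Nlrp1b held 0 matches. A match is a description of letters, and its absence says only that these letters are not in this window.

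Among the sensors, Nlrp1a read higher in KO, Nlrp1b and the dim Nlrc4 read lower, and Nlrp3 and Aim2 had overlapping groups. Nlrp1a, a sensor whose activating mutation in mice causes caspase-1 dependent death of blood progenitors, had log2 values of 7.15 and 6.81 in KO, against 5.33 and 5.30 in WT. Both KO arrays lay above both WT arrays, and the WT arrays sat just above the median gene. KO minus WT, its log2 difference was 1.67 (SE 0.15), or 3.17-fold. Signals this near the median gene can understate a change, since the table carries no background measure.

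Nlrp1b, the neighbouring sensor, known in mice for its cleavage by anthrax lethal factor, had log2 values of 6.38 and 5.77 in KO, against 6.6 and 6.71 in WT. The groups did not overlap, but the gap within KO (0.61) was larger than that between KO replicate 1 and WT replicate 1. Its difference was -0.58 (SE 0.22). Without KO replicate 2 the difference was -0.28, and without KO replicate 1 it was -0.89, so 1 array decided its size.

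Nlrc4, which assembles after NAIP proteins bind bacterial flagellin or secretion system proteins, had log2 values of 4.13 and 3.92 in KO, against 4.21 and 4.43 in WT. Nlrp3, a sensor of membrane damage and ion efflux, had 4.05 and 3.84 in KO, against 3.88 and 4.0 in WT. Both genes lay below the median gene in all 4 arrays, where a small difference or a lack of one says little about their RNA. The difference was -0.30 (SE 0.12) for Nlrc4 and 0.005 (SE 0.11) for Nlrp3.

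Aim2, a sensor of cytosolic double-stranded DNA, read well above the median gene and differed least. It had log2 values of 8.57 and 8.46 in KO, against 8.44 and 8.59 in WT, and both groups averaged 8.515. The 95% interval of its difference ran from -0.34 to 0.34.

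Pycard, the adaptor, had log2 values of 11.55 and 11.36 in KO, against 10.21 and 10.62 in WT. Both KO arrays were higher, and the gap within WT (0.41) was the widest WT gap of the 9 genes. Its difference was 1.04 (SE 0.18), a fold of 2.06.

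Both proteases read higher in KO. Casp1, the enzyme that inflammasomes activate, had log2 values of 11.78 and 11.59 in KO, against 10.21 and 10.31 in WT, with a difference of 1.43 (SE 0.13) and a fold of 2.69. Casp4, the mouse caspase-11 that binds cytosolic lipopolysaccharide, had 9.19 and 9.13 in KO, against 8.11 and 8.30 in WT. Its arrays lay closest together within KO, 0.06 apart, and its difference was 0.96 (SE 0.14), a fold of 1.94.

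Gsdmd, the pore-forming substrate of both caspases, had log2 values of 7.70 and 7.51 in KO, against 7.25 and 7.54 in WT. The groups overlapped, since WT replicate 3 read above KO replicate 2, and the difference was 0.21 (SE 0.16). It is the most positive difference among the 5 members that were not picked, while the smallest among the 4 picked ones is that of Casp4.

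**Figure D1:**
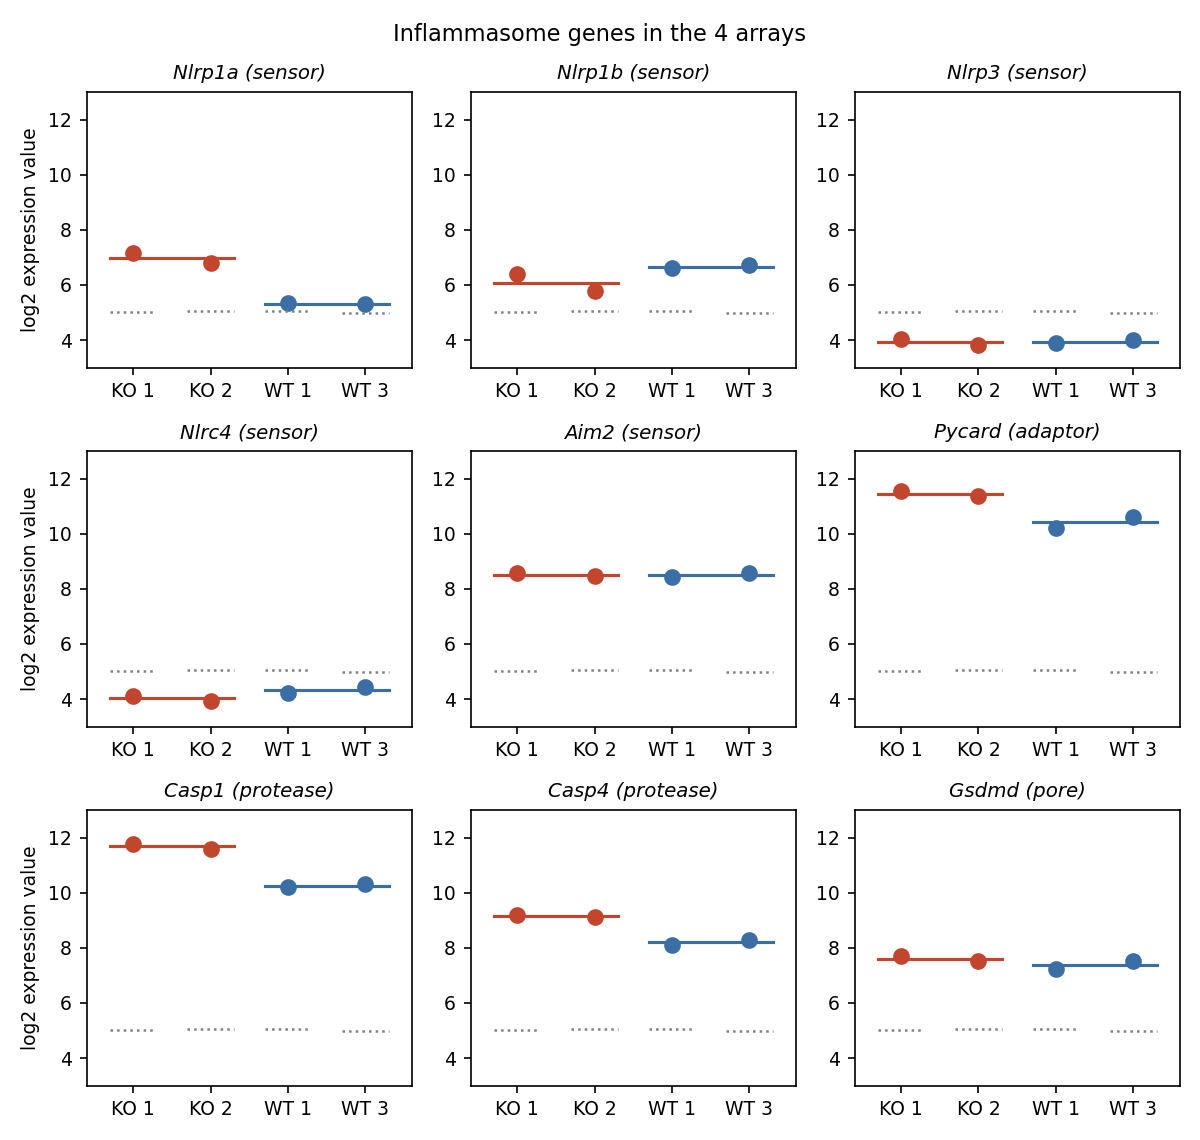
Log2 expression value (vertical axes, 3 to 13) of each inflammasome gene in the 4 arrays, with the arrays labelled KO in red on the left and those labelled WT in blue on the right. Solid lines are group means and dotted lines the median gene of each array; KO lies above WT for Nlrp1a, Pycard, Casp1 and Casp4, and Nlrp3 and Nlrc4 lie below the dotted lines throughout.

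In all, 6 of the 9 genes separated the arrays without overlap, with KO above WT for 4 and below WT for 2. Over all genes, KO lay above WT without overlap for 20.9% and below for 17.5%. At least a 2-fold higher level in KO was seen for 3 members (Nlrp1a, Casp1 and Pycard), against 0.387% of all genes, and at least a 2-fold lower level for 0 members, against 0.285%. At a limma adjusted p under 0.05, 0 of the 9 passed, against 0.00656% of all genes. At an unadjusted p under 0.05, 4 were higher (Nlrp1a, Casp1, Casp4 and Pycard) and 1 lower (Nlrp1b), against 6.32% and 3.76% of all genes (10.1% in either direction). Since the members were chosen from this contrast, nothing is read from these counts.

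**Figure D2:**
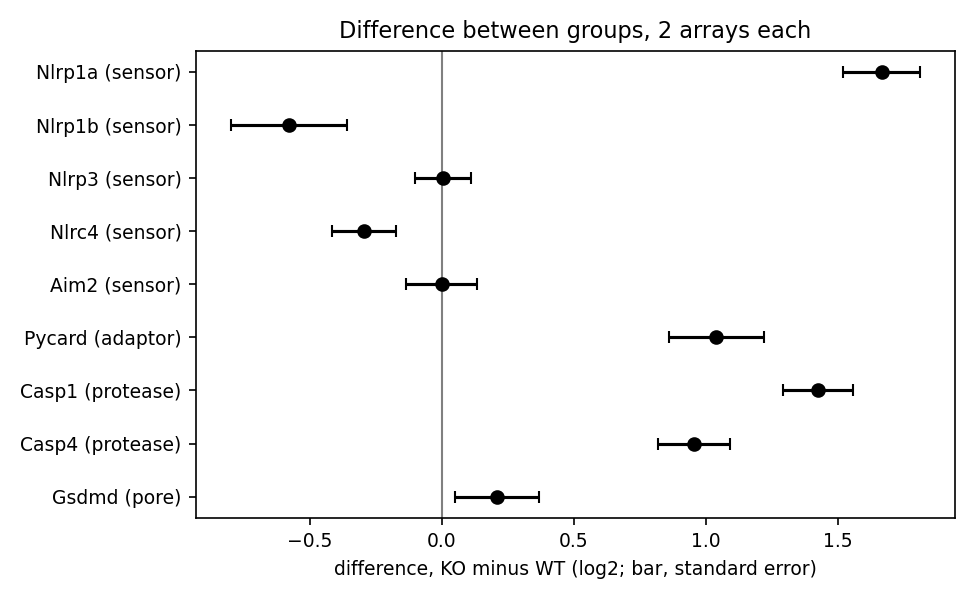
Difference between the arrays labelled KO and those labelled WT on the log2 scale (horizontal axis; points, KO minus WT; bars, standard error from limma with 2 arrays in each group) for each inflammasome gene, ordered by role. The differences run from -0.58 for Nlrp1b to 1.67 for Nlrp1a.

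The members also shared an order of arrays within each group, a measure that the choice of genes did not use. KO replicate 1 read above KO replicate 2 for 9 of 9 members, by 0.06 to 0.61 and a median of 0.19 on the log2 scale. WT replicate 3 read above WT replicate 1 for 8 of 9, by a median of 0.15, with Nlrp1a the exception at -0.03. Over all genes these shares were 45.5% and 46.3%, each with a median of -0.01. Among the other genes of the pathway they were 63 of 119 and 60 of 119. The order was not particular to the members. Of the lists described below, the means of the priming genes, other caspases and other lytic death genes also followed it. For the priming genes these means were 9.02 and 8.90 in KO, against 8.93 and 9.06 in WT. The means of the other sensors, other gasdermins with Ninj1, cytokine list and regulators did not. The all-gene shares were not matched for brightness, and the members need not vary independently. With 2 arrays in each group this ordering is a description of these arrays, and no test was made.

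The genes beside these loci gave smaller differences, but most of them read below the median gene, where a lack of difference says little. Casp1 (chr9:5298517-5307281) and Casp4 (chr9:5308849-5336791) are 1567 bases apart in RefSeq GRCm38.p6, and Nlrp1a (chr11:71091197-71144969) and Nlrp1b (chr11:71152574-71242514) are 7604 bases apart, while Pycard lies at chr7:127991373-127993867. Casp12, the next caspase of the chromosome 9 cluster, differed by -0.01 (SE 0.12), and its 4 arrays lay below the median gene. Msantd4 on the other side of Casp1 differed by 0.01 (SE 0.12), with values of 7.81 and 7.70 in KO and 7.77 and 7.72 in WT. Gria4 and Pdgfd, which lay below the median gene in all 4 arrays, differed by -0.015 and 0.005.

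Beside the Nlrp1 genes, Mis12, a kinetochore gene, differed by 0.40 (SE 0.17) with its KO arrays 8.87 and 9.25 above its WT arrays 8.63 and 8.69, and 6330403K07Rik differed by 0.05 (SE 0.13). Wscd1 and Aipl1, which lay below the median gene in all 4 arrays, differed by -0.02 and -0.06. Around Pycard, the differences of Prss8, Prss36, Trim72 and the integrin gene Itgam lay between -0.12 and -0.02, and these genes read below the median gene. None of these neighbours passed the limma test, with adjusted p between 0.525 and 0.985.

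**Figure D3:**
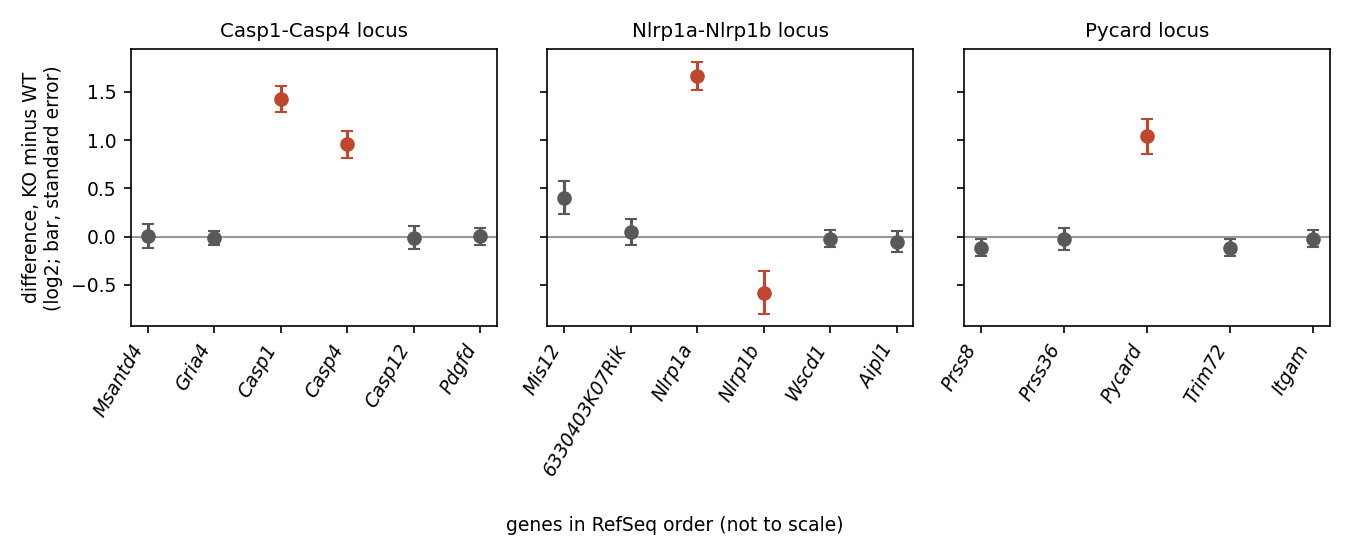
Difference on the log2 scale (vertical axis; points, KO minus WT; bars, standard error from limma with 2 arrays in each group) for the members (red) and the 2 nearest measured protein-coding genes on each side (grey), in RefSeq order and not to scale. The red points of Casp1, Casp4, Nlrp1a and Pycard stand above their neighbours, and Nlrp1b stands below.

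The rest of the pathway was examined in 7 lists of 135 other genes chosen by function, of which 119 had a cluster of their own. At a limma adjusted p under 0.05, 0 rose and 0 fell (lowest adjusted p 0.286), and at an unadjusted p under 0.05, 2 were higher and 4 lower, against 6.32% and 3.76% of all genes, the shares beside which the counts of each list below also stand. Their median difference was -0.03, against 0.005 over all genes. KO lay above WT without overlap for 16.8% of them and below for 24.4%, against 20.9% and 17.5% of all genes.

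Of the other sensors, 27 of 31 were measured and 0 passed in either direction, with 0 at an unadjusted p under 0.05. Their differences lay between -0.41 and 0.15 with a median of -0.03, and 17 of them lay below the median gene in every array. The flagellin receptor gene family gave Naip6 at 7.79 and 8.14 in KO against 7.97 and 8.77 in WT, and Naip5 at 6.58 and 7.22 in KO against 6.6 and 7.31 in WT. Both pairs overlapped between groups, and these genes are near copies whose probes may not separate them. Nod1, a receptor of bacterial cell wall fragments, differed by 0.14 (SE 0.14), and Nlrc3, an inhibitory member of the family, by -0.17 (SE 0.13). Mndal, a HIN-200 protein gene, had 11.84 and 11.72 in KO against 12.11 and 11.92 in WT, which did not overlap, and a difference of -0.24 (SE 0.13). Nlrp10, Nlrp4b and Nlrp9a, all below the median gene, differed by 0.15, -0.125 and -0.12.

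Among the other caspases, 6 of 8 were measured and 0 passed, with 0 at an unadjusted p under 0.05. Casp8, which starts apoptosis at death receptors and can also process gasdermin D, differed by -0.02 (SE 0.10), with values of 13.30 and 13.14 in KO and 13.23 and 13.24 in WT. Casp9, the apoptosome caspase, differed by -0.28 (SE 0.14), and Casp6 by -0.20 (SE 0.25), while Casp2 and Casp14 differed by 0.125 and 0.11. The higher readings of Casp1 and Casp4 had no counterpart of that size in these genes, whose differences lay between -0.28 and 0.13. All 10 genes of the remaining gasdermins and Ninj1, the protein that ruptures the membrane late in lytic death, were measured and 0 passed, with 0 at an unadjusted p under 0.05. There, 9 of 10 lay below the median gene in every array, and Ninj1, the 1 above it, differed by 0.03 (SE 0.15). Of the dim gasdermin genes, Gsdmc2 differed by -0.255, Gsdmc4 by -0.125, Pjvk by -0.115 and Gsdma3 by -0.08.

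The cytokine list held the substrates of caspase-1, related cytokines and their antagonists, with 10 of 10 measured, 0 past the limma threshold, and 1 higher and 0 lower at an unadjusted p under 0.05. Il1b, the classical substrate, read 3.93 and 4.17 in KO against 4.10 and 4.03 in WT, below the median gene in every array. Il18 read 4.83 and 4.95 in KO against 4.84 and 5.16 in WT and differed by -0.11 (SE 0.14). Il1rn, the antagonist of the IL-1 receptor, stood apart with 6.43 and 6.99 in KO against 5.48 and 5.52 in WT. Its difference was 1.21 (SE 0.20), a fold of 2.31, with a limma adjusted p of 0.286. Il1rn was the 1 gene of the 119 that was at least 2-fold higher, against 0.387% of all genes. Without it, the differences of the list lay between -0.29 and 0.05, with Il1a at -0.22, Il1f6 at -0.14 and Il1f9 at -0.13. In every array, 7 of the 10 genes lay below the median gene, among them Il1a, Il1f6 and Il1f9. There, a small difference or a lack of one says little.

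Of the upstream regulators, 30 of 33 were measured and 0 passed, with 1 higher and 2 lower at an unadjusted p under 0.05. Nek7, which licenses NLRP3, differed by -0.16 (SE 0.13) and Dpp9, a peptidase that restrains NLRP1 proteins, by -0.31 (SE 0.12), with 7.07 and 7.22 in KO against 7.47 and 7.44 in WT. Serpinb1a, an inhibitor of inflammatory proteases, differed by 0.36 (SE 0.12). The interferon-inducible Trim30a, a negative regulator of NLRP3 in mice, had 11.08 and 10.67 in KO against 11.75 and 11.38 in WT and a difference of -0.69 (SE 0.21). Ifi208, listed under its older name Pydc3, had 7.01 and 6.69 in KO against 7.68 and 7.57 in WT and a difference of -0.78 (SE 0.16). Ifi213, formerly Pydc4, differed by -1.10 (SE 0.49), but WT replicate 1 at 7.44 stood far from WT replicate 3 at 5.93 and from KO at 5.75 and 5.43. Limma adjusted p for these 6 genes lay between 0.298 and 0.769.

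Of the priming genes, the receptors, adaptors and transcription factors that induce inflammasome components, 24 of 28 were measured and 0 passed, with 0 higher and 2 lower at an unadjusted p under 0.05. Tlr7, a receptor of single-stranded RNA, had 11.49 and 11.47 in KO against 12.24 and 12.01 in WT and a difference of -0.65 (SE 0.13, limma adjusted p 0.298). Its adaptor gene Myd88 had 9.25 and 9.23 in KO against 9.62 and 9.53 in WT and a difference of -0.34 (SE 0.13, limma adjusted p 0.477). Both were thus lower in each KO array. Over the whole list, KO lay above WT without overlap for 4 genes and below for 5, against 20.9% and 17.5% of all genes. Irf1, an activator of interferon-inducible genes, differed by 0.31 (SE 0.15), with 9.67 and 9.42 in KO against 9.16 and 9.32 in WT. The NF-kB subunit genes Rela, Nfkb2, Relb and Rel differed by 0.17, -0.04, -0.06 and -0.25.

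**Figure D4:**
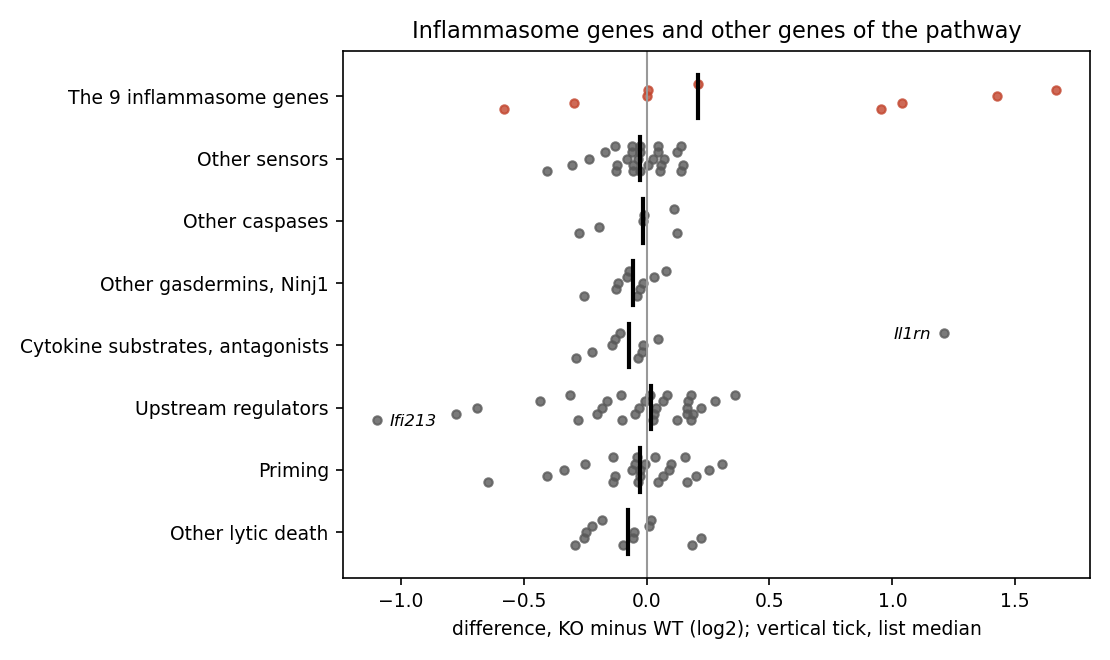
Difference between the arrays labelled KO and those labelled WT on the log2 scale (horizontal axis; each point 1 gene, KO minus WT; black ticks, list medians) for the inflammasome genes in red and 7 lists of other pathway genes in grey. Il1rn is the grey gene past 1 and Ifi213 the grey gene past -1, and the other grey points lie between -0.78 and 0.36.

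In the list of other lytic death genes and death-domain partners, 12 of 15 were measured and 0 passed, with 0 at an unadjusted p under 0.05. Ripk3 and Mlkl, the kinase and the effector of necroptosis, differed by -0.26 (SE 0.35) and -0.25 (SE 0.14). Zbp1, a nucleic acid sensor that can trigger that pathway, differed by 0.19 (SE 0.11), with 11.22 and 11.21 in KO against 11.06 and 11.00 in WT. Fadd, the adaptor of death receptors, differed by -0.29 (SE 0.20), and Card9, an adaptor of fungal recognition, by 0.22 (SE 0.093). Card9 lay below the median gene in every array, where a small difference says little.

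Because these genes are best known from myeloid cells, markers of other cell types were read in the same arrays. In bulk RNA, fewer cells of a type and less RNA per cell cannot be told apart. Of 11 monocyte or macrophage markers, 4 were higher and 7 lower in KO, 8 lay below the median gene in every array, and the list's mean log2 value was 4.67 and 4.77 in KO, against 4.81 and 4.7 in WT. The defining genes Lyz2 and Csf1r read 3.90 and 3.99 (Lyz2) and 3.73 and 3.80 (Csf1r) in KO, against 4.24 and 4.15 (Lyz2) and 3.83 and 3.71 (Csf1r) in WT. Ccr2, the brightest of the list, differed by -0.25, and Cd68 read 5.79 and 5.66 in KO against 5.47 and 5.02 in WT. The neutrophil list averaged 4.18 and 4.17 in KO against 4.24 and 4.18 in WT, and 7 of its 9 markers lay below the median gene in every array (Ly6g was the brightest and Elane the dimmest). Of 9 dendritic cell markers, 1 was higher and 8 lower, but 7 of the 9 lay below the median gene in every array. The list averaged 5.44 and 5.41 in KO against 5.57 and 5.48 in WT, with Bst2 far above the rest. Clec9a was its dimmest gene, and Bst2, its brightest and an interferon-inducible gene, read 14.48 and 14.34 in KO against 14.96 and 14.82 in WT (limma adjusted p 0.298).

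Markers of antibody-secreting cells mostly read higher in KO, and 0 of them passed the limma test. Of 8 plasma cell markers, 7 were higher in KO and 1 lower, and the list mean was 6.56 and 6.51 in KO against 6.16 and 6.32 in WT. In every array, 4 of the 8 lay below the median gene. The groups overlapped for Xbp1, Irf4, Prdm1, Sdc1 and Tnfrsf17, and KO lay above WT for Jchain, Mzb1 and Derl3. Mzb1 and Derl3 were below the median gene in every array, and Irf4 is also among the priming genes. Jchain, which joins antibody units, had 7.66 and 7.49 in KO against 6.62 and 6.47 in WT (difference 1.03, SE 0.13, limma adjusted p 0.205). Sdc1, a defining surface marker, read 4.44 and 4.45 in KO against 4.43 and 4.52 in WT, below the median gene, while Xbp1 was the brightest of the list and Tnfrsf17 the dimmest. The part of these cells in the readings of Casp1, Casp4, Nlrp1a and Pycard was not tested. Of 8 B cell markers, 2 were higher and 5 lower in KO, with list means of 4.67 and 4.79 in KO against 4.75 and 4.79 in WT (Cd79b was the brightest and Pax5 the dimmest). The NK cell list averaged 5.29 and 5.48 in KO against 5.13 and 5.31 in WT, and the T-box gene Eomes in it read 7.37 and 8.49 in KO against 6.80 and 6.91 in WT (difference 1.075, limma adjusted p 0.439). Of its 5 measured genes, Eomes and Ncr1, its dimmest, were the 2 higher in KO, while 3 were lower (Prf1, Klrb1c and Klre1), with a list median of -0.07. Of the CD8 markers, Cd8a read 4.08 and 4.07 in KO against 4.12 and 4.23 in WT, and Cd8b1 read 10.71 and 11.26 in KO against 9.74 and 10.78 in WT. The erythroid list rested on 2 measured markers (Alas2 and Slc4a1), with means of 4.49 and 4.58 in KO against 4.58 and 4.50 in WT.

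**Figure D5:**
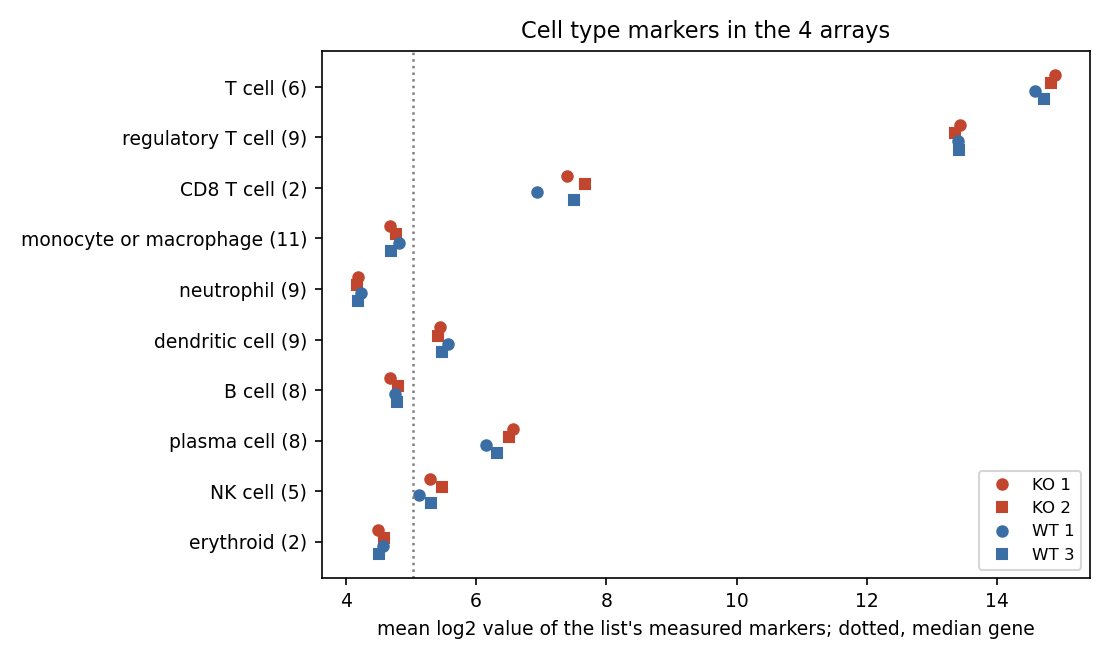
Mean log2 value of the measured markers of each cell type (horizontal axis; number of markers in parentheses) in each array, with the arrays labelled KO in red and those labelled WT in blue. T cell and regulatory T cell markers lie to the right; the monocyte or macrophage, neutrophil, B cell and erythroid lists lie left of the dotted median gene, and the plasma cell list is higher in both KO arrays.

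Genes with a profile over the 4 arrays closest to each picked member were found by the Euclidean distance between values centred on the gene's own mean. For Casp1 these were Zfp414 (distance 0.0883), the secreted netrin gene Ntn4 (0.164) and Tmem181a (0.239), and the same 3 genes were closest to Nlrp1a. Casp4 was closest to Cep76, a centrosomal protein gene (0.03), Hey1, a transcription factor of the Notch pathway (0.074), and Eno3, an enolase (0.104). Pycard was closest to Snhg5 (0.0899), Eno3 (0.142) and Ifitm2, an interferon-inducible membrane protein gene (0.15). Cep76, for example, read 7.25 and 7.22 in KO against 6.20 and 6.36 in WT. With 4 values per gene and 30492 genes, close profiles occur readily and show nothing about function.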

How the data were processed

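The log2 values deposited by the authors cover 65528 transcript clusters in 4 columns, 1 per array, all of them used (0 left out). The submitters' processing notes name Transcriptome Analysis Console and RMA, a probe summary method on the log2 scale, with no version or order. Values ran from 1.82 to 19.38, the range of such a scale. Genome build and background handling were not given in the sources used here.

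Clusters were named by the platform annotation: 31037 had 1 symbol (synonyms of 1 gene merged), 1480 several and 33011 were not listed. Symbols were updated through RefSeq (GRCm38.p6), by gene identifier for 23231 clusters. For 432 genes with several clusters the brightest was kept, which left 30492 genes.

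Differences (KO minus WT) were fitted over all genes with limma 3.58.1 in R 4.3.3 (eBayes with an intensity trend, two-sided, Benjamini-Hochberg, threshold 0.05). No filter on dim genes was used. With 2 arrays a group, the smallest two-sided p of an exact permutation test is 0.333. The members, lists and rules for named genes were chosen with earlier results of these data known. Of each pathway list, genes past the threshold, with a difference of at least 1 or otherwise of smallest p (up to 4) were named, and of each marker list the brightest and dimmest. Further genes were named after values were seen. The fit was tested on simulated data for this comparison (30492 genes, 200 of them changed): it called 40.3% of genes changed by 1, 89.6% by 2 and 98.5% by 3, with 7 unchanged genes called. The simulated spread was drawn from limma's own fitted model with independent normal errors, so these rates need not hold for the real arrays. Alternatives were other normalizations, a filter on dim genes, other cluster summaries, other eBayes settings and leaving out each array. The number of arrays limits the precision.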

Additional observations from a re-analysis of the deposited data

How the results depend on the processing

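No paired analysis was possible because the groups share only replicate number 1 in the labels. Under 11 alternatives, Nlrp1a, Casp1, Casp4 and Pycard kept their sign. In those that kept all 4 arrays, 0 of the 9 inflammasome genes and 0 of the 119 other pathway genes passed the limma threshold. The lowest limma adjusted p of a member was 0.058, among the brighter genes only, where not all of these genes have a value. Leaving out 1 array gave differences of 1.495 to 1.84 for Nlrp1a, 1.33 to 1.52 for Casp1, 0.86 to 1.05 for Casp4, 0.84 to 1.25 for Pycard, -0.89 to -0.28 for Nlrp1b, -0.41 to -0.19 for Nlrc4, 0.07 to 0.36 for Gsdmd, -0.10 to 0.11 for Nlrp3 and -0.08 to 0.08 for Aim2, with either sign for Nlrp3 and Aim2. With an array left out, the lone array of a group is assumed to vary like the other group. Over all genes, the count higher in KO was 2 as reported, 1 after median-centring and over every transcript cluster, 0 after a further quantile normalization, without an intensity trend, with robust settings and without any 1 array (0 to 0), and 9 among the brighter genes only, where fewer genes were tested. The count lower in KO was 4 among the brighter genes and 3 over every transcript cluster. Nlrp3 and Nlrc4 have no value among the brighter genes, where the median difference was 0.955 for the members, -0.0925 for other sensors, 0.4625 for the cytokine list (2 genes, Il1rn and Il18bp) and -0.18 for other lytic death genes. The other sensors had a median of 0.0 after median-centring and -0.00375 after quantile normalization. Leaving out 1 array gave list medians of -0.05 to -0.005 for other sensors, -0.1125 to -0.005 for the cytokine list and -0.0875 to 0.0575 for the regulators. The cause of the other shifts was not tested. No setting moved the median of all genes by over 0.1.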
